A study of Mus musculus with 20 samples.

Results

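Dense chains are short stretches of transcribed sequence in which listed cytosines follow each other at close range. Mouse mRNA was treated with bisulfite, which turns unmethylated cytosine into uracil, so a cytosine that is still read as C is either 5-methylcytosine (m5C) or was not converted. On mRNA, m5C is written mainly by NSUN2 and NSUN6. NSUN6 is known for the motif CTCCA and NSUN2 for a cytosine followed by a G-rich stretch, both in or near hairpin loops. Base-paired RNA reacts poorly with bisulfite, which acts on single strands, and blocks of neighbouring unconverted cytosines are a known feature of such places. Methylated positions of mRNA are known mostly as lone cytosines.

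A chain joined listed sites of 1 strand whose neighbours were at most 10 nt apart, and a dense chain had 4 or more sites. The rule used positions only, no read count, but a site is in the table because at least 1 library passed it. There were 12 dense chains with 51 sites among 32378 listed sites, or 0.158%. Of all listed sites, 30513 stood alone, 727 chains had 2 sites and 120 had 3, just outside the rule. Of the dense chains, 10 had 4 sites, 1 had 5 (Csk) and 1 had 6 (an intron of Slc7a9).

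The 20 libraries came from heart, kidney, liver, small intestine and spleen of wild-type (WT) C57BL/6J mice and of Nsun6-KO mice, with 2 libraries for each tissue and genotype. The KO mice lacked exons 3 and 4 of Nsun6 in all cells after CRISPR/Cas9 editing, and the mice were 8-week-old females. The labels name no animal, so p-values measure the spread between these libraries. The level of a site is the count of unconverted reads divided by the coverage, and the authors marked sites as passed in each library. Wherever the mark was set, coverage was 20 reads or more, the unconverted count 3 or more and the level 0.1 or more.

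Coverage over listed sites summed to between 1230665 and 4640168 reads per library, with medians from 26 to 82 reads per site. The libraries passed up to 4679 sites each, and 9 libraries with at least 1000 passed sites held 87.2% of all passes and 82.2% of the passes in dense chains. No listed site lay in Nsun6, so the deletion could not be checked here. For all 5 tissues, the markers took a larger share of coverage in each library of their own tissue than in any library of another. The heart markers, of which only 3 of 8 genes had a listed site, held 0.0273% to 0.132% of coverage in heart and at most 0.00106% elsewhere. Some libraries stood apart in markers of another tissue. The kidney markers held 0.0942% of coverage in heart KO replicate 2 and 0 in the other 3 heart libraries. Erythroid markers held 4.36% in spleen WT replicate 1, 0.00365% in WT replicate 2 and 0.313% and 0.276% in the spleen KO libraries. Of the acinar markers of pancreas, of which 1 of 4 had a listed site, the share was 1.40% and 0.91% in the WT and KO libraries of small intestine replicate 1 and 0 in replicate 2.

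The stretches are shown because they fall into 2 kinds and because most results turn on which of their cytosines were unconverted together. Each has 30 bases of the transcribed strand, written 5′ to 3′ from the RefSeq GRCm38.p6 sequence, whose coordinates are those of mm10, and capitals mark the listed cytosines. The first 7 lie in named mRNAs outside repeats. Fastk (chr5:24445059-24445088, minus strand), Man1b1 (chr2:25332873-25332902, plus strand), Cbr3 (chr16:93683437-93683466, plus strand) and Ybx2 (chr11:69936182-69936211, plus strand) are in coding sequence of exon 1. Csk (chr9:57645317-57645346, minus strand) is in the 5′ UTR, also in exon 1. Rbm24 (chr13:46429238-46429267, plus strand) is in coding sequence of exon 4 and Prrc2a (chr17:35161051-35161080, minus strand) in coding sequence of exon 7.
Fastk: ctacgcggggCCCggggagtCatgtagggt
Csk: gaacgccCggggcggCcCccCggCggcggc
Man1b1: cggcgccgcCgCCggcgcctCaccgggact
Cbr3: gggacgaggCgcggggCCgCgcggcggtgc
Ybx2: caggCgacggcggcCtCggggactCccgcg
Rbm24: ctgcggCtgCagctgctgCagcCgcagccg
Prrc2a: agccttcaggccCaCcCCagttccctccct

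The other 5 lie almost wholly in soft-masked sequence, the mark of a repeat in the reference. Sppl2a (chr2:126892890-126892919, minus strand) is in the 3′ UTR in exon 15. The other 4 have no gene in the deposited table, and by GENCODE M21 they lie in introns of Prpsap1 (chr11:116473916-116473945, minus strand), Zfand3 (chr17:30013460-30013489, plus strand), Slc7a9 (chr7:35461610-35461639, plus strand) and Map4 (chr9:110043611-110043640, plus strand).
Sppl2a: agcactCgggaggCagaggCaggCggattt
Prpsap1 intron: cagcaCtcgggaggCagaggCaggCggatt
Zfand3 intron: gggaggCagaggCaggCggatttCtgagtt
Slc7a9 intron: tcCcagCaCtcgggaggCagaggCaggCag
Map4 intron: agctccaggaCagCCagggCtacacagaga

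The first 4 of these repeat chains hold the same 17 bases, GGGAGGCAGAGGCAGGC, on the transcribed strand, and in all 4 each of its 3 cytosines, at positions 7, 13 and 17 of the stretch, is listed. These bases are found in B1 elements, short interspersed repeats that are transcribed within many mouse genes. A repeat annotation was not used here, and whether reads of near-identical copies were placed at the right one was not tested. The stretch was picked as the longest run of bases shared by the printed sequences of 4 dense chains. Its presence in those chains was thus fixed by the choice, and its share among members is no measure of enrichment. The stretch was within 50 nt of 18 of 51 members (35.3%) on the same strand and of none on the other strand. Among the other listed sites with sequence it was within 50 nt of 311 of 32290 (0.963%) on the same strand and of 25 (0.0774%) on the other. Just outside the rule, 29 of the 120 chains of 3 sites were exactly its 3 cytosines.

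In 51 sites and 20 libraries there were 1020 possible values. Counts were given for 368 of them, 262 with at least 20 reads. Another 110 had a p-value of 1 with no counts, whose meaning the sources used here do not give, and 542 were blank. Of the 368, 73 were passed, 43 had unconverted reads without being passed and 252 had none. Of the 73 passes, 48 were in KO and 25 in WT libraries, while all listed sites had 17755 passes in KO and 16977 in WT. Sites of a chain were often passed together in a library, so these passes are not separate observations of genotype. The heat map of levels sets all values side by side.

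**Figure D1:**
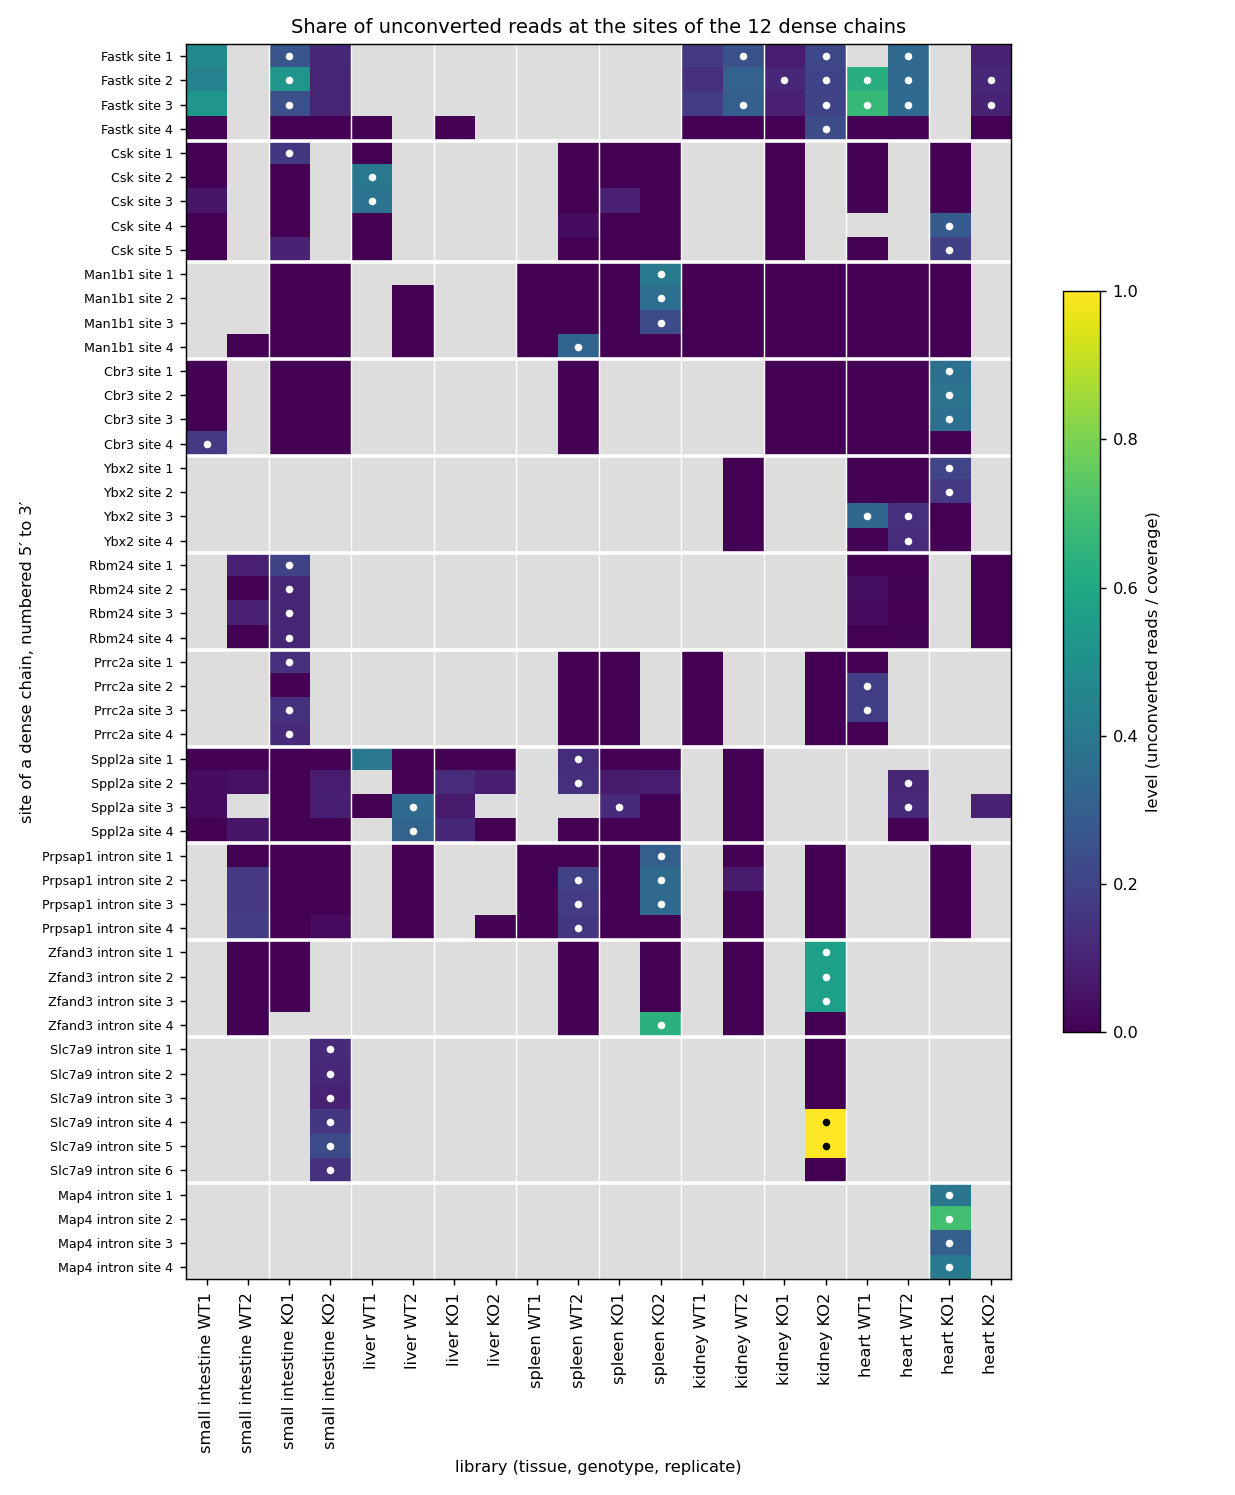
Level of each of the 51 sites (rows, grouped by chain and numbered 5′ to 3′) in each of the 20 libraries (columns), from 0 in dark violet to 1 in yellow. Grey cells have no counts and dots mark passed values. Sites 1 to 3 of Fastk were above 0 in every library with counts, while most other chains show blocks of a few sites in 1 to 4 libraries.

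Fastk encodes Fas-activated serine/threonine kinase, the founding member of a family of RNA-binding proteins of mitochondria. Its first 3 sites are 3 neighbouring cytosines between stretches of G, and they were unconverted in every library with counts, which was 9 libraries for site 1 and 10 for each of sites 2 and 3. No other member with counts in 3 or more libraries was. Among the other 32327 listed sites, 0.393% had unconverted reads in every library with counts and counts in 3 or more libraries. Site 1 passed in 4 libraries, and sites 2 and 3 in 6 each.

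In heart, the libraries of WT replicate 1 and replicate 2 had 416 of 661 and 190 of 555 reads unconverted at Fastk site 2. KO replicate 2 had 13 unconverted reads, a level of 0.111, and KO replicate 1 had no counts. In kidney, WT replicate 1 and replicate 2 had 2 of 15 and 6 of 19, or levels of 0.133 and 0.316, and the KO libraries had 12 and 20 unconverted reads at levels of 0.117 and 0.2. In small intestine, WT replicate 1 had 8 of 18, KO replicate 1 had 45 of 86 and KO replicate 2 had 2 of 19, with no counts in WT replicate 2. The heart KO library with counts was below both heart WT libraries, and it is the one with kidney markers at 0.0942% of coverage, whose part in the result was not tested. In kidney and small intestine WT and KO overlapped at site 2, and in kidney also at sites 1 and 3. In small intestine, the WT library with counts was above both KO libraries at the other 2 sites. Its level was 0.474 against 0.267 and 0.111 at site 1, and 0.526 against 0.244 and 0.105 at site 3. Liver and spleen had no counts at sites 1 to 3.

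The heart levels at site 2 were 0.629 (exact Clopper-Pearson 95% interval 0.591 to 0.666) in WT replicate 1, 0.342 (0.303 to 0.383) in WT replicate 2 and 0.111 (0.0605 to 0.183) in KO replicate 2. The 2 WT libraries thus differed beyond counting error, with a mean of 0.486 ± 0.203 (SD, n = 2). These intervals cover counting error only, since the reads carry no molecular identifiers. Averaged over the 3 tissues, the level at site 2 was 0.19 higher in WT than in KO. When genotypes were permuted within each tissue over 10 libraries, the exact two-sided p was 0.222, with 12 of 54 arrangements as large. This site was taken for the test after its values were seen, among the members passed and then counted in most libraries. Site 3 tied with it, each with 6 passes and 10 libraries with counts, and the test was not run there. The result holds for site 2 only, and this p says nothing of site 3. At site 3 the small intestine WT library was at 0.526, above both KO libraries at 0.244 and 0.105. Heart levels there were 0.671 and 0.349 in WT and 0.101 in KO, and kidney overlapped as at site 2. The sites differed in small intestine KO replicate 1, with a level of 0.523 at site 2 and 0.244 at site 3.

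The 3 neighbouring cytosines of Fastk moved together within a library. In heart WT replicate 2, sites 1 to 3 had 189, 190 and 196 unconverted reads of 554 to 562, and in heart KO replicate 2 they had 12, 13 and 12, at levels from 0.0984 to 0.111. In kidney KO replicate 2 the counts were 22, 20 and 21, at levels from 0.2 to 0.216. The exception was small intestine KO replicate 1, where site 2 had 45 of 86 and its neighbours 23 of 86 and 22 of 90.

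Fastk site 4, 8 nt further 3′, did not follow its neighbours. It was fully converted in 11 of the 12 libraries with counts, among them heart WT replicate 1 with 0 of 722 reads, which allows a level of up to 0.00416, and heart WT replicate 2 with 0 of 570. The exception was kidney KO replicate 2, with 25 unconverted reads, a level of 0.238. In kidney KO replicate 1 the count was 0 of 120.

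**Figure D2:**
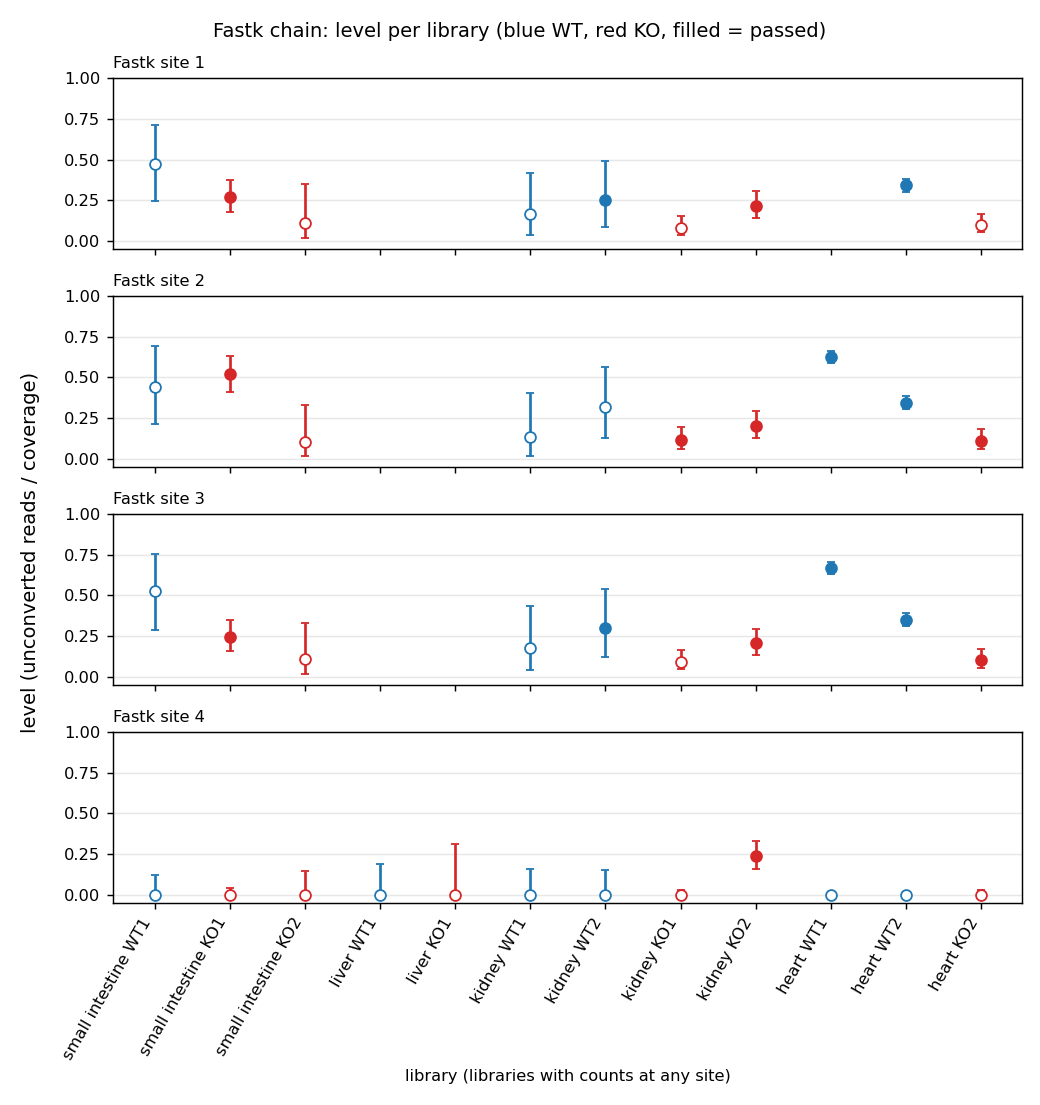
Level of the 4 Fastk sites (panels, 5′ to 3′) in the 12 libraries with counts, blue for WT and red for KO, filled where passed, with exact 95% intervals for counting error. Sites 1 to 3 have like levels within a library, other than site 2 in small intestine KO replicate 1, and site 4 is at 0 except in kidney KO replicate 2 (0.238).

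The other 6 chains outside repeats were passed in 1 to 3 libraries each. Csk, C-terminal Src kinase, which restrains kinases of the Src family, had 5 listed sites of 9 cytosines in its span. Its site 1 was passed in small intestine KO replicate 1 with 5 of 31 reads. Sites 2 and 3 were passed in liver WT replicate 1 with 8 of 20 and 8 of 21 reads. Sites 4 and 5 were passed in heart KO replicate 1 with 9 of 31 and 6 of 32. No site was passed in more than 1 library. In spleen KO replicate 2, the library with the deepest coverage of this chain, all 5 were converted, from 0 of 261 to 0 of 288 reads, which allows a level of up to 0.0115 at the shallowest.

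Man1b1 encodes an endoplasmic reticulum mannosidase that trims N-glycans of misfolded glycoproteins. Its sites 1, 2 and 3 had 38, 40 and 17 unconverted reads in spleen KO replicate 2, at levels of 0.404, 0.36 and 0.227, while site 4 had 0 of 73 reads. In spleen WT replicate 2 the picture was turned round, with 0 of 47 at each of sites 1 to 3 and 14 of 43 at site 4. The other spleen libraries had 0 of 34 to 38 reads (WT replicate 1) and 0 of 61 to 65 reads (KO replicate 1) at all 4 sites. All values from the other 4 tissues were 0, in 11 libraries with counts.

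Cbr3, a carbonyl reductase of the short-chain dehydrogenase family, had 8 of 22, 8 of 21 and 8 of 22 unconverted reads at sites 1 to 3 in heart KO replicate 1 and 0 of 23 at site 4. Site 4 was passed in small intestine WT replicate 1 with 6 of 35 reads, where sites 1 to 3 had none of 32 to 34. In the other 7 libraries with counts all 4 sites were converted.

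Ybx2, a Y-box protein that binds and stores mRNA in germ cells, had counts in 3 heart libraries and 1 kidney library. Heart KO replicate 1 had 9 of 43 and 7 of 42 unconverted reads at sites 1 and 2 and none at sites 3 and 4. Heart WT replicate 1 had 15 of 45 at site 3 only, and heart WT replicate 2 had 6 of 45 and 6 of 47 at sites 3 and 4. Site 3 was thus passed in both heart WT libraries, at 0.333 and 0.133, against 0 of 46 in the 1 heart KO library with counts. Besides Fastk sites 2 and 3, it was the only member passed in both libraries of a tissue and genotype.

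Rbm24, a splicing regulator of heart and skeletal muscle, was passed in small intestine KO replicate 1 alone, at all 4 sites, with 11 of 54, 6 of 55, 6 of 55 and 6 of 56 reads. Coverage was far deeper in heart. There, WT replicate 1 had 11 of 312 and 11 of 313 reads at sites 2 and 3 and none at sites 1 and 4, WT replicate 2 had at most 4 of 538 and KO replicate 2 had none. The highest heart level, 0.0353, was below the 0.107 that was lowest in small intestine KO replicate 1.

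Prrc2a, a large proline-rich protein that binds RNA, was passed at sites 1, 3 and 4 in small intestine KO replicate 1 with 8 of 59, 9 of 61 and 7 of 59 reads, where site 2 had 0 of 61. In heart WT replicate 1, sites 2 and 3 had 5 of 27 reads each and sites 1 and 4 none. In the other 4 libraries with counts every site was converted, at 10 to 37 reads.

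Of the repeat chains, Sppl2a had counts in most libraries, 14. It encodes an intramembrane protease that clears the remnant of the invariant chain in B cells. Unconverted reads were present in 12 of the 14, but at 1 to 3 sites at a time and mostly at low levels. In liver WT replicate 2, sites 3 and 4 had 13 of 37 and 13 of 41 unconverted reads and sites 1 and 2 none. In spleen WT replicate 2, sites 1 and 2 had 9 of 68 and 9 of 67 and site 4 none of 47. In heart WT replicate 2, sites 2 and 3 had 6 of 55 and 6 of 49. Site 3 was also passed in spleen KO replicate 1 with 3 of 25 reads. In spleen KO replicate 2, the deepest, site 2 had 17 of 211 reads without being passed, and the other 3 sites had none of 188 to 212.

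In the Prpsap1 intron, spleen KO replicate 2 had 24 of 79, 27 of 78 and 27 of 79 reads unconverted at sites 1 to 3 and none at site 4. Spleen WT replicate 2 had 5 of 26, 5 of 29 and 5 of 31 at sites 2 to 4 and 0 of 28 at site 1. Sites 2 and 3 overlapped between these 2 libraries, while spleen WT replicate 1 and spleen KO replicate 1 had none at any site. Small intestine WT replicate 2, with too few reads to be passed, had 2 of 12, 2 of 12 and 2 of 11 at sites 2 to 4.

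In the Zfand3 intron the 2 passing libraries shared no site. Kidney KO replicate 2 had 13 of 23 reads at each of sites 1 to 3 and 0 of 22 at site 4. Spleen KO replicate 2 had 16 of 25 at site 4 and none of 25 or 26 at sites 1 to 3. The other 4 libraries with counts had none.

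The Slc7a9 intron had counts in 2 libraries only. Slc7a9 itself encodes an amino acid transporter of kidney and intestine. Small intestine KO replicate 2 passed all 6 sites with 3 to 6 unconverted reads of 25 to 30. Kidney KO replicate 2 had 27 of 27 and 26 of 26 at sites 4 and 5, a level of 1, and none of 25 to 27 at the other 4 sites. Sites 4 and 5 are the first 2 cytosines of the shared 17 bases. The Map4 intron had counts in heart KO replicate 1 only, with 9 of 23, 16 of 23, 7 of 23 and 9 of 22 reads at its 4 sites, so that no other library could be set against it.

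**Figure D3:**
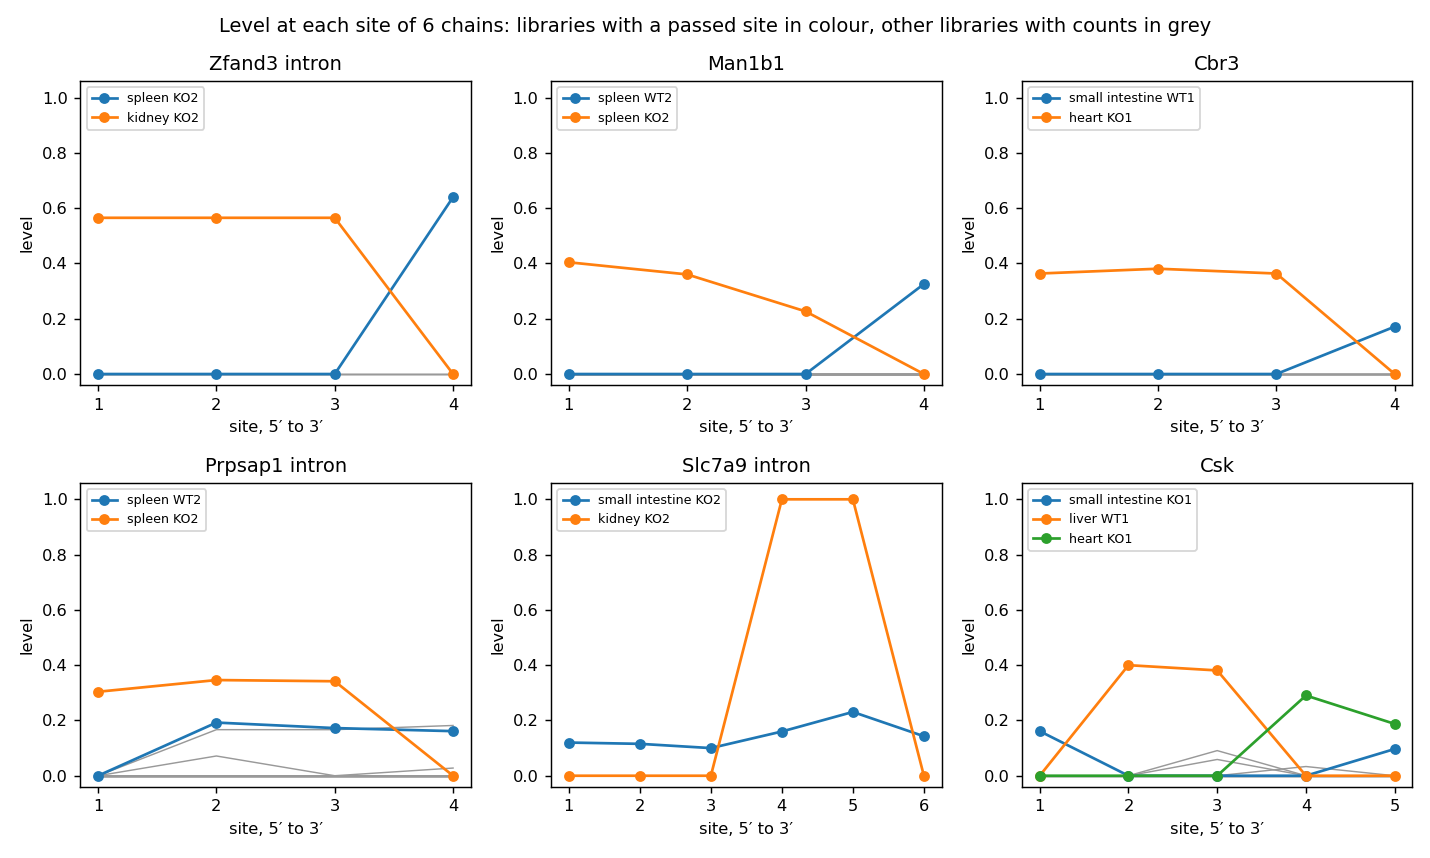
Level at each site, 5′ to 3′, in 6 chains. Libraries with a passed site are coloured and the others with counts are grey lines. In the Zfand3 intron, Man1b1 and Cbr3 the library that is high at sites 1 to 3 is at 0 at site 4, and the library that is high at site 4 is at 0 at sites 1 to 3.

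Across the chains, some library passed every site in 4 (Fastk, Rbm24 and the Slc7a9 and Map4 introns), so the other 8 reached 4 sites only because the table lists the sites of all libraries together. Only 2 chains (Rbm24 and the Map4 intron) were passed in 1 library, 6 in 2 libraries and 4 in 3 or more. In both genotypes, 8 chains had a pass, and the other 4 had passes in KO only, of which the Slc7a9 and Map4 introns had counts in KO only. By site, 33 members were passed in KO only (64.7%), 11 in WT only (21.6%) and 7 in both, against 16179 (50%), 15432 (47.7%) and 716 of the other listed sites. Neighbouring sites share reads, so these are not separate observations of genotype. Of 48 member passes in KO, small intestine and heart replicate 1 gave 11 each, kidney replicate 2 gave 9 and spleen replicate 2 gave 7. In WT the most was 7, in heart replicate 2. All of these libraries had at least 1000 passed sites. There were 27 pairs of chain and library in which some but not all sites were passed. In these the sites not passed had counts 55 times, and 49 of the 55 were fully converted. Within the spans, 51 of 70 cytosines were listed, and the other 19 were passed in no library.

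Neighbouring sites within a chain were passed in the same library in 32 of 39 pairs (82.1%), and other listed neighbours at 1 to 10 nt in 662 of 967 (68.5%). Among other sites the share was lower at longer distance, 29% at 11 to 50 nt, 19.4% at 51 to 200 nt and 15% from over 200 to 1000 nt. Where both members of a pair were passed in a library, their unconverted counts were within 1 read of each other in 22 of 40 cases (55%), against 522 of 746 (70%) for other neighbours at 1 to 10 nt. These are descriptions, with no test, as the sites of a pair are covered largely by the same reads.

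**Figure D4:**
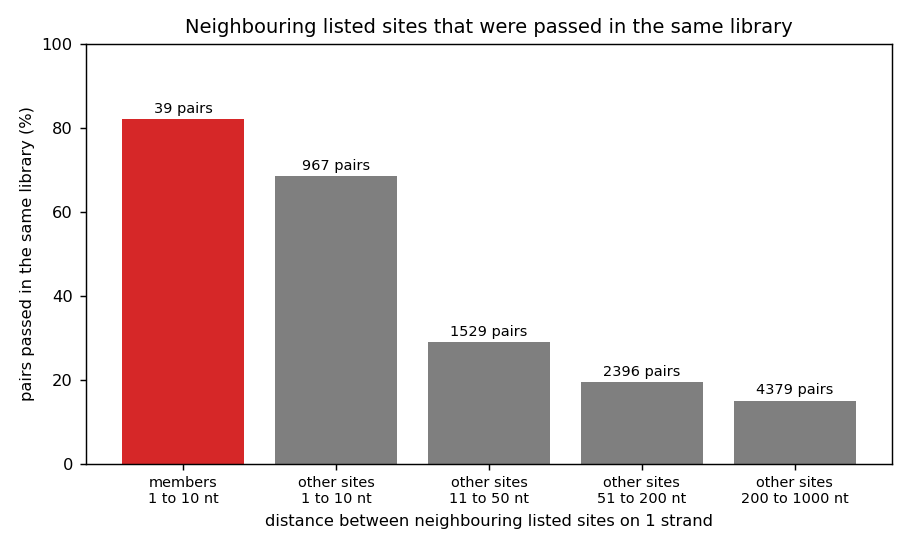
Share of neighbouring listed sites on 1 strand that were passed in the same library, by distance, with the number of pairs above each bar. The 39 pairs within dense chains (red) stand at 82.1%, and other pairs (grey) range from 68.5% at 1 to 10 nt to 15% beyond 200 nt.

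The second library of the same tissue and genotype gave a check on each pass. For 21 of the 73 passes it had at least 20 reads, and in 10 of the 21 the level there was at least 0.05 (47.6%, exact 95% interval 25.7% to 70.2%). Fastk gave 8 of these 10, from 9 passes, and the exception was site 4. Without Fastk, 2 of 12 were repeated (16.7%, 2.09% to 48.4%), both at Ybx2 site 3, and in the other 10 the second library had no unconverted read. Among other listed sites 1976 of 19464 passes were repeated (10.2%, 9.73% to 10.6%), an interval that lies within that of the members without Fastk. In sites of chains with 2 or 3 members, 322 of 1098 were repeated (29.3%). The intervals treat passes as independent. Neighbouring sites share reads, and a site passed in both libraries, such as Ybx2 site 3, is counted for each of them. The intervals are thus likely too narrow and serve as description only.

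Members outside their passing libraries were mostly converted. Without Fastk, 162 of 177 values with at least 20 reads and no pass were 0 (91.5%), against 95.3% of 267975 such values at other listed sites. For Fastk it was 9 of 12 (75%), and all 9 zeros were at site 4. Passing in 2 or more libraries was seen for 11 members (21.6%) and for 923 other sites (2.86%).

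No member could be tested for a difference between genotypes under the requirements of the fit. These were 20 reads or more in all 4 libraries of a tissue and, in WT or in KO, 2 unconverted reads or more in each library and a mean level of 0.05 or more. The count called was thus 0 of 0 tested, beside 2.29% of all sites tested in heart, 0% in kidney, 3.15% in small intestine, 2.60% in liver and 1.32% in spleen (edgeR quasi-likelihood test, Benjamini-Hochberg adjusted, in either direction). With a coverage minimum of 10 reads, 3 Fastk sites could be tested in kidney. Their log2 odds in KO minus WT were -0.93 at site 3, -0.63 at site 2 and -0.74 at site 1, with edgeR adjusted p of 0.824, 0.89 and 0.857, beside 0% called of 253 sites. With the requirement loosened to 5 unconverted reads in sum, 5 members in spleen, 1 in kidney and 1 in small intestine were tested and none was called, beside 0.0261% of 3827, 0.0467% of 2140 and 0.159% of 1255 sites. The 3 Man1b1 sites that were high in spleen KO replicate 2 had adjusted p of 0.775 there. The 4 values of each such site include 3 of 0, and a p above the threshold does not show that the genotypes were alike.

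Pooled over members, the level overlapped between WT and KO libraries in 4 of 5 tissues. In heart the WT libraries had 23.4% and 12.4% and the KO libraries 13.8% and 4.1%. In kidney they had 5.03% and 3.64% against 3.7% and 14.1%, in spleen 0% and 4.84% against 0.974% and 6.81%, and in small intestine 8.14% and 4.55% against 7.27% and 4.68%. In liver the KO libraries, 6.76% and 2.17%, were below WT, 14.4% and 9.96%, on 46 to 261 reads per library. This order is in part built in by the listing. Each liver WT library passed 2 members and the liver KO libraries passed 0. Csk sites 2 and 3 and Sppl2a site 4 are listed only because a liver WT library passed them. Over members not passed in a library, KO minus WT in liver was 2.42 percentage points. In the other tissues, too, the pooled values include the passes by which sites were listed. The Fastk chain carried the heart value. Without it the heart levels were 2.5% and 1.2% in WT and 13.8% and 0.232% in KO, and KO minus WT turned from -8.94 to 5.14 percentage points. The other listed sites were pooled in the same way. In spleen they stood at 3.97% in KO replicate 2 and 2.5% in WT replicate 2, against 0.699% and 1.13% in their partners, and in kidney at 3.64% in KO replicate 2, while its other 3 libraries stood at 0.602% to 0.672%. In liver the order was the opposite of that of the members, at 5.01% and 3.79% in WT and 7.81% and 7.48% in KO. In small intestine replicate 1 they stood at 0.987% in WT and 2.2% in KO. The part of these library levels in the result was not tested.

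Over all listed values the signal fraction was never below 0.9, and for members it ran from 0.9 to 1, with 0.903 at Fastk in heart WT replicate 1. As the table holds no lower value for any site, this lower end is not a trait of members. The nonconversion rate of the gene was 0.0103 at most for Fastk (heart WT replicate 1), where the median over listed sites was 0.00043. The chains without a gene carried 1 rate per library, which was 0.0207 in kidney KO replicate 2, 0.0125 in heart KO replicate 1, 0.0114 in spleen KO replicate 2, 0.00303 in spleen WT replicate 2 and 0.00122 in small intestine KO replicate 2, the 5 libraries that passed any of their sites. The medians over listed sites in these libraries were 0.00034, 0.0005, 0.00044, 0.00035 and 0.00027, in the same order, so that each of these rates was above the median of its library. This was not particular to libraries with a pass. The highest rates of these chains were 0.0407 in liver KO replicate 2 and 0.0329 in small intestine WT replicate 2, which passed none of their sites. The medians there were 0.00028 and 0.00042.

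The windows around members were rich in G and C and folded stably. Over 50 nt on each side, the median predicted folding energy (RNAfold) was -38.3 kcal/mol for the 51 members and -27.5 kcal/mol for other listed sites. Windows of a chain overlap, so the chain is the unit to look at. The windows are genomic sequence, and those of 24 members lie within 1 exon, so that others can include bases absent from the spliced mRNA. No window of Fastk, Prrc2a or an intron chain lies within 1 exon. Of the windows within 1 exon, the medians were -44.6 kcal/mol for the 24 members and -28.5 kcal/mol for other sites. The chain means ran from -49.9 kcal/mol in Fastk, -48.7 in Ybx2 and -48.1 in Cbr3 to -30.9 in the Slc7a9 intron and -23.2 in the Map4 intron, and 11 of 12 were below the median of other sites. In the predicted fold, 74.5% of members and 62.1% of other sites were base-paired, and in Fastk, Man1b1, Cbr3, Rbm24 and Prrc2a all 4 sites were. The rule asks for 4 or more cytosines close together, which in part builds in a higher C content. Base content in turn enters the predicted energy. Median G content was 34.7% against 27.7% and median C content 30.7% against 25.7%. These are descriptions with no test.

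**Figure D5:**
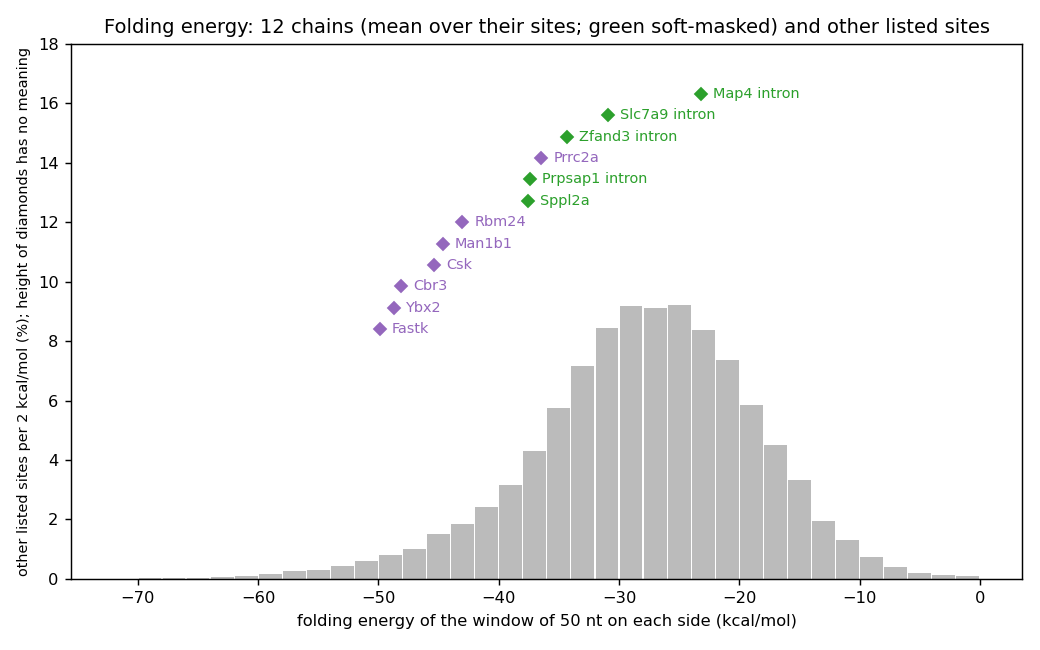
Predicted folding energy of the genomic window around a site. Grey bars give the distribution over other listed sites, and diamonds give the mean of each chain, green in soft-masked repeats and violet outside them. The 7 chains outside repeats lie between -49.9 and -36.5 kcal/mol, and 11 of 12 chains lie below -27.5 kcal/mol, the median of other sites.

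The motif CTCCA, counted from the listed cytosine, was at 0 of 51 members and at 302 other sites (0.935%). A listed cytosine followed by NGGG was found at 5 members (9.8%), among them 2 of Fastk, and at 1432 other sites (4.43%). The base after the cytosine was G at 31.4% of members and 13.6% of other sites. More than 50% of the window was soft-masked for 22 members (43.1%) and 2518 others (7.8%). In exon 1 lay 21 members (41.2%) and 4090 others (12.7%), and in introns 18 (35.3%) and 11.3%. None of the genes of the lists for cytosolic ribosomal proteins, mitochondrially encoded genes, collagens, histones, translation factors, respiratory chain, contractile, plasma and immune proteins or RNA m5C enzymes and readers had a dense chain. There were 93 listed sites in ribosomal protein genes and 98 in the immune list, and dense chains held 0.158% of all listed sites.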

How the data were processed

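Libraries were made from mRNA captured on beads, of which 200 ng was converted with bisulfite and made into stranded libraries. Denaturation at 70 °C lasted 10 min by the labels and 30 min by the methods, before 1 h at 60 °C. The submitters' processing notes name the build mm10, the methods name the RNA-m5C pipeline for site calling, and the sources used here give no aligner for the bisulfite libraries. The authors deposited 1 table of sites for all 20 libraries. Per the file headers it holds, for a site in a library, 2 counts (reads covering it and reads still showing C), the level as a fraction, a signal fraction, a nonconversion rate as a fraction, a mark of passed sites and a p-value per site, which the authors computed and which was not used as a test here. The deposited fraction equalled unconverted count over coverage count. Lowest coverage in the table was 10 reads.

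Members were chains of sites on 1 strand with gaps of at most 10 nt and 4 or more sites. Members, gene lists and tests were chosen with earlier results of these data known. Chains named were the 10 with most sites, those passed in 2 tissues, members past the threshold and the highest chain of each group, and the Map4 intron was added after its values were seen. Genotypes were compared within tissues by edgeR 4.0.16 on unconverted and converted read counts, an intercept per library and a methylation term per genotype, adjusted over all tested sites. limma 3.58.1 on log2 odds with 0.5 added, Fisher's exact test and other filters were alternatives. On simulated counts a shift of 4 log2 odds was recovered at medians from 3.91 in liver to 4.46 in kidney, and from 64.5% (small intestine) to 89.5% (liver) of changed sites were called. At a shift of 2, 23.8% were called in heart, 3.85% in kidney, 3.23% in small intestine, 0% in liver and 0% in spleen. The simulated noise was beta-binomial at each site, with no shift of a whole library. Real libraries did shift, as other listed sites pooled at 0.699% and 3.97% in the spleen KO libraries. The recovery may thus be overstated, and it covers no member, as none met the requirements of the fit. Sequence and folding used GRCm38.p6, which had C at each of the 32341 listed sites it covers, GENCODE M21 and RNAfold 2.7.2. Motifs were searched on both strands for the 17-base stretch and on the transcribed strand for CTCCA and CNGGG. A count of 0 allows 3 reads of the coverage.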

Additional observations from a re-analysis of the deposited data

How the results depend on the processing

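The number of sites in chains, 51, depended on the rule. It was 12 with gaps of at most 5 nt, 411 with 3 or more sites and 11 with 5 or more, and the share of chains with every site passed in 1 library, 33.3%, was 78.8% with 3 or more sites. With a gap of 20 nt, 57.8% of neighbours were passed in the same library. Without the 10 libraries whose level pooled over all listed sites was above 3%, there were 10 sites in 2 chains, and without the 9 libraries of 1000 or more passes 6 sites in 1 chain, 100% of them passed whole in 1 library (the latter, and settings without Fastk, were chosen after seeing the data). Leaving out 1 library gave 34 to 51 sites, 34 without heart KO replicate 1, and shares of 27.3% to 44.4%. The share of passes repeated in the second library ran from 28.6% to 71.4% when 1 library was left out, the highest without either spleen KO library, and was 16.7% without Fastk.

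KO minus WT of the pooled level was -0.37 percentage points in small intestine, 4.13 as a mean of site levels and -4.7 over members not passed. In liver, where the libraries had counts at different sites, it was -7.71, and 2.42 over members not passed. In kidney it was 4.56, and -2.01 over members not passed. In heart it was -8.94, and 1.93, 0.37 and 5.14 as a mean of site levels, over members not passed and without Fastk. Leaving out 1 library gave -2.17 to 1.43 in small intestine, -10 to -5.42 in liver, -1.45 to 4.38 in spleen, -0.63 to 9.75 in kidney and -14.4 to -3.44 in heart. The causes were not tested.

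Few settings let a member be tested. None was tested in liver or heart under any setting, nor anywhere by limma, Fisher's test or a coverage of 50, so the 0 called there says nothing of members. With 1 library left out, 1 was tested in small intestine, 3 to 4 in spleen and 1 to 2 in kidney, where any was. Without kidney KO replicate 1, Fastk site 4 was called higher in KO (adjusted p = 0.00319, edgeR), where 94.6% of all sites tested were called, so leaving out a library gave 0 to 1 in kidney and 0 to 0 in the other tissues. Over all sites, edgeR called 4, 4, 2, 0 and 12 in small intestine, liver, spleen, kidney and heart, limma 2, 2, 0, 0 and 0, and Fisher's test between 58 and 275. Without kidney KO replicate 1 edgeR called 1732 in kidney, where the requirement then rests on 1 KO library. Same-numbered WT and KO libraries did not deviate together (correlations -0.14 to 0.08), and with the replicate block no member was tested, and 3, 9, 3, 0 and 11 sites were called, with 11 in heart when the pairing was crossed. At 20 reads a count of 0 allows a level of 0.15.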

Other observations

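The 17-base stretch shared by 4 dense chains had 168 copies within 50 nt of a listed site on the same strand. In 33 of them all 3 cytosines were listed, in 47 there were 2, in 26 there was 1 and in 62 none. The first cytosine was listed in 95 copies, the second in 83 and the third in 41. Of the 219 listed sites at these cytosines, 20 were passed in 2 or more libraries.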
